A study of Mus musculus with 16 samples.

Results

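The cathepsins considered here are 9 lysosomal proteases of the mouse, Ctsa, Ctsb, Ctsc, Ctsd, Ctsh, Ctsk, Ctsl, Ctss and Ctsz, measured in whole adrenal glands of embryos with and without a conditional deletion of Dicer. They were taken by gene symbol, with every probe set annotated to that symbol alone, and make up 9 of the 18193 genes named on the array and 20 of its probe sets. All 9 passed the filter on dim signals and were tested. By the grouping used to choose them, Ctss, Ctsc and Ctsz are enriched in myeloid cells and the other 6 are widely expressed.

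Signals came from Affymetrix Mouse430_2 arrays, 16 in all, with 4 in each of 4 groups. The knockout (KO) glands, at embryonic day E16.5 and at E15.5, carried an Sf1-Cre transgene with both Dicer alleles floxed, so that Dicer, which cuts precursors into mature microRNAs, was deleted in cells in which the Sf1 driver is active, such as those of the adrenal cortex. The control glands, labelled wild type (WT) and also taken at E16.5 and at E15.5, came from littermates without the transgene. All parents carried at least 1 floxed Dicer allele, so that the controls may carry such alleles too, and how many each embryo had was not analysed here. All embryos were on a C57BL/6 background. Each array held the pooled glands of 1 genotype from 1 of 4 litters of a stage, so that the spread between arrays includes that between litters. Values are log2 signals, on which a difference of 1 is a 2-fold ratio.

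Cathepsins are made as inactive precursors, carried to the lysosome mostly through the mannose 6-phosphate receptors, and activated there at acid pH by cutting off the propeptide. Most are cysteine proteases of the papain family, while Ctsd is an aspartic protease and Ctsa a serine carboxypeptidase. Ctsb, Ctsd and Ctsl do bulk protein turnover in nearly every cell. Ctss trims the invariant chain from class II molecules in antigen-presenting cells, Ctsc activates the serine proteases of leukocyte granules, and Ctsk degrades bone collagen in osteoclasts. Macrophages, which engulf dying cells, are rich in several of them.

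Several facts of the arrays bear on these genes. Dicer1 itself averaged 8.26 ± 0.14 in KO and 8.62 ± 0.16 in WT at E16.5 (SD, n = 4), and 8.23 ± 0.16 in KO and 8.59 ± 0.07 in WT at E15.5. The position of its probe set within the gene was not analysed here, so this is no check of the deletion by itself. The mean over all probe sets was 6.36 to 6.37 in KO and 6.31 to 6.32 in WT at E16.5, and the median KO minus WT difference over all 13644 genes tested was 0.08 at E16.5 and 0.07 at E15.5. One array stood apart, WT E16.5 replicate 2, whose control transcripts Gapdh and Actb had a 3′ minus 5′ signal of 3.15 on the log2 scale, against 0.19 to 1.62 on the other 15 arrays. It was the lowest of the 4 WT arrays at E16.5 for 8 of the 9 cathepsins, so values at E16.5 are given with and without it. The next highest value, 1.62, was that of KO E16.5 replicate 1, the lowest KO array of that stage for 7 of the 9. Leaving out the low WT array lowers KO minus WT differences, and leaving out this KO array raises most of them. The median difference of the 9 at E16.5 was 0.31 with all arrays, 0.23 without that WT array and 0.40 without that KO array.

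Ctss, Ctsc and Ctsa rose in KO glands at E16.5, and Ctss rose at E15.5 as well. Thus 3 of 9 passed as higher at E16.5, where 6.99% of all genes tested did, and 1 of 9 at E15.5, where 3.69% did (limma, adjusted p under 0.05). No cathepsin fell, against 3.55% of all genes at E16.5 and 2.18% at E15.5. All 4 KO arrays lay above all 4 WT arrays for 3 of 9 at E16.5 (10.4% of all genes) and for 3 of 9 at E15.5 (9.8% of all genes). The median difference of the 9 was 0.31 at E16.5 and 0.15 at E15.5. The 3 myeloid-enriched members had medians of 1.01 and 0.47, and the 6 widely expressed ones medians of 0.30 and 0.12. At E15.5 the median of those 6 was unsteady: with 1 array of that stage left out it ran from 0.015 (without KO replicate 3) to 0.17, and was 0.038 without WT replicate 2 and 0.058 without WT replicate 3.

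Ctss gave the largest difference of the 9 at both stages. At E16.5 its log2 signal was 10.69, 10.92, 11.11 and 10.93 in KO glands, against 10.03, 9.63, 9.95 and 9.72 in WT glands. All 4 KO arrays lay above all 4 WT arrays. The difference was 1.08 (SE 0.12), a 2.11-fold higher signal, with an adjusted p of 2.74e-05 in limma, and 1.01 (adjusted p = 9.70e-05) without WT replicate 2. In order of difference it stood at 109 of 13644 genes.

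At E15.5 Ctss read 9.98, 9.76, 9.98 and 10.23 in KO glands and 9.33, 9.25, 9.48 and 9.53 in WT glands, again without overlap. The difference was 0.59 (SE 0.12), with an adjusted p of 0.00871 in limma. It passed in each of the 8 fits that left out 1 array of that stage, with differences of 0.51 to 0.66. The array carries a single probe set for Ctss.

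Ctsc, the dipeptidyl peptidase that activates granule proteases, rose at E16.5. Its log2 signal was 9.45, 9.27, 9.88 and 9.88 in KO glands, against 8.68, 8.06, 8.74 and 8.93 in WT glands. The groups did not overlap, and WT replicate 2 was the lowest. The difference was 1.01 (SE 0.18, adjusted p = 0.00134 in limma), and 0.83 (adjusted p = 0.00205) without that array. At E15.5 Ctsc read 9.05, 8.73, 8.78 and 9.15 in KO glands and 8.43, 8.37, 8.47 and 8.57 in WT glands. These groups also stood apart, but the difference of 0.47 (SE 0.18) did not pass (adjusted p = 0.15), although it did in 4 alternative fits.

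Ctsz, an exopeptidase also known as cathepsin X, did not follow the other 2 myeloid-enriched members at E16.5. At E16.5 it read 11.15, 11.42, 11.70 and 11.68 in KO glands and 11.76, 10.31, 11.41 and 11.34 in WT glands. The groups overlapped, the highest array was a WT one, and WT replicate 2 lay far below the other 7. The difference of 0.28 (95% interval −0.20 to 0.76, adjusted p = 0.501) became −0.015 without that array. At E15.5 all 4 KO arrays (11.42, 11.43, 11.68 and 11.71) lay above all 4 WT arrays (11.22, 11.30, 11.08 and 11.41), by a margin small against their spread. The difference of 0.31 (SE 0.23) did not pass (adjusted p = 0.529 in limma). That SE is drawn from all 4 groups, and the SD was 0.62 in WT at E16.5 against 0.16 in KO and 0.14 in WT at E15.5. In 10 alternative fits the adjusted p at E15.5 ran from 0.146 to 0.733. At E15.5 its difference lay between those of the 6 widely expressed members, of which Ctsb had the highest at 0.17, and that of Ctsc.

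Ctsa, the carboxypeptidase that also protects beta-galactosidase and neuraminidase in the lysosome, was the widely expressed member that passed. At E16.5 it read 9.69, 9.77, 9.95 and 9.98 in KO glands, against 9.54, 9.03, 9.52 and 9.42 in WT glands, without overlap. The difference was 0.47 (SE 0.12), a 1.38-fold higher signal (adjusted p = 0.021 in limma), and 0.35 (adjusted p = 0.0417) without WT replicate 2. This call was the least firm of the 3: it was lost without KO replicate 3 or 4 (adjusted p = 0.0688 and 0.0687), after centring on the 75th percentile of each array (0.0527) or on dim genes (0.0776), and when only that stage was fitted (0.0837). At E15.5 Ctsa ranged from 9.49 to 9.71 in KO and from 9.30 to 9.68 in WT, a difference of 0.14 (adjusted p = 0.604).

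**Figure D1:**
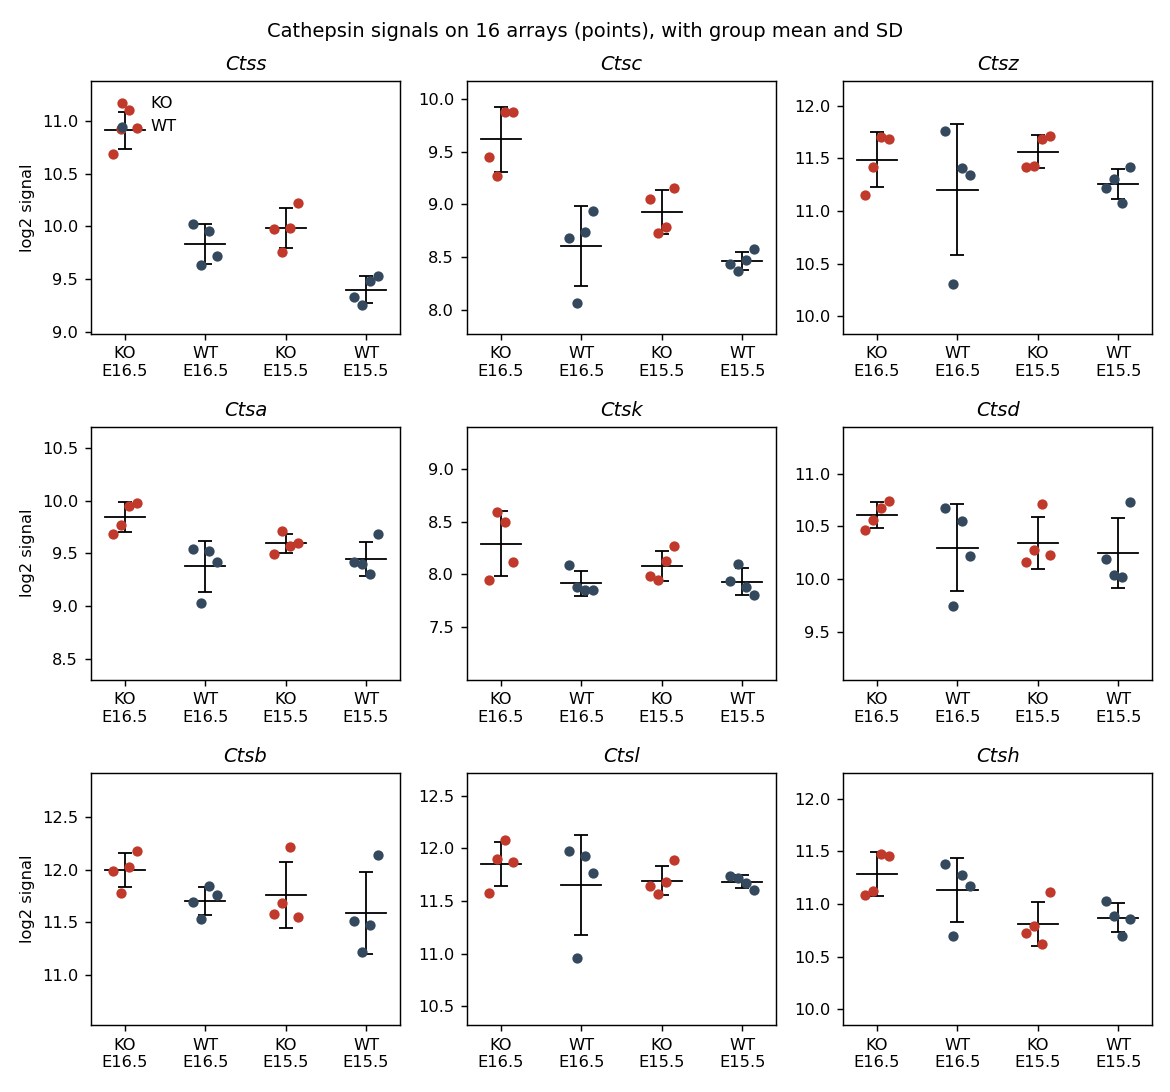
Log2 signal (vertical axis, each panel spanning the same range of log2 units) of each cathepsin on the 16 arrays, in KO and WT glands at E16.5 and E15.5 (horizontal axis). Points are arrays, lines are group means and bars are the SD over 4 arrays. Ctss and Ctsc show KO arrays above WT arrays at both stages, and in the Ctsz panel 1 WT array at E16.5 lies at 10.31.

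The other 5 members, all widely expressed, did not pass at either stage. For the collagenase Ctsk the difference at E16.5 was 0.37 (SE 0.13, adjusted p = 0.091), with KO arrays from 7.95 to 8.60 and WT arrays from 7.85 to 8.09. KO replicate 1 was the low one, and without it the difference was 0.49 and passed (adjusted p = 0.0289). At E15.5 Ctsk differed by 0.15, with KO arrays from 7.95 to 8.27 and WT arrays from 7.81 to 8.10. KO and WT ranges of Ctsk overlapped at both stages.

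The aspartic protease Ctsd differed by 0.31 at E16.5 (95% interval −0.10 to 0.73, adjusted p = 0.365), with 10.61 ± 0.12 in KO and 10.30 ± 0.42 in WT (SD, n = 4). Ctsb, which cleaves as both an endopeptidase and a dipeptidase, differed by 0.29 (95% interval −0.09 to 0.67, adjusted p = 0.361), with 11.99 ± 0.16 in KO and 11.71 ± 0.13 in WT. Neither passed, and KO and WT arrays overlapped for both. Ctsl, an endopeptidase that also matures neuropeptides, differed by 0.20 (95% interval −0.18 to 0.58), with 11.85 ± 0.21 in KO and 11.65 ± 0.47 in WT. Ctsh, an aminopeptidase, differed by 0.15 (95% interval −0.17 to 0.47), with 11.29 ± 0.21 in KO and 11.13 ± 0.30 in WT. These intervals leave room for a rise of about the size measured for Ctsa in each of the 4.

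Leaving out WT replicate 2 moved most of these differences at E16.5. They became 0.13 for Ctsd, 0.23 for Ctsb, −0.032 for Ctsl and 0.0080 for Ctsh, while that of Ctsk was 0.36. The median of the 6 widely expressed members was then 0.18, that of the 3 myeloid-enriched ones 0.83 and that of all genes tested 0.07. At E15.5 Ctsd differed by 0.10, Ctsb by 0.17, Ctsl by 0.01 and Ctsh by −0.06, with adjusted p from 0.694 to 0.985. With 1 array of the stage left out, the difference of Ctsb ran from 0.015 (without KO replicate 3) to 0.35 (without WT replicate 4), and was 0.047 without WT replicate 2.

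**Figure D2:**
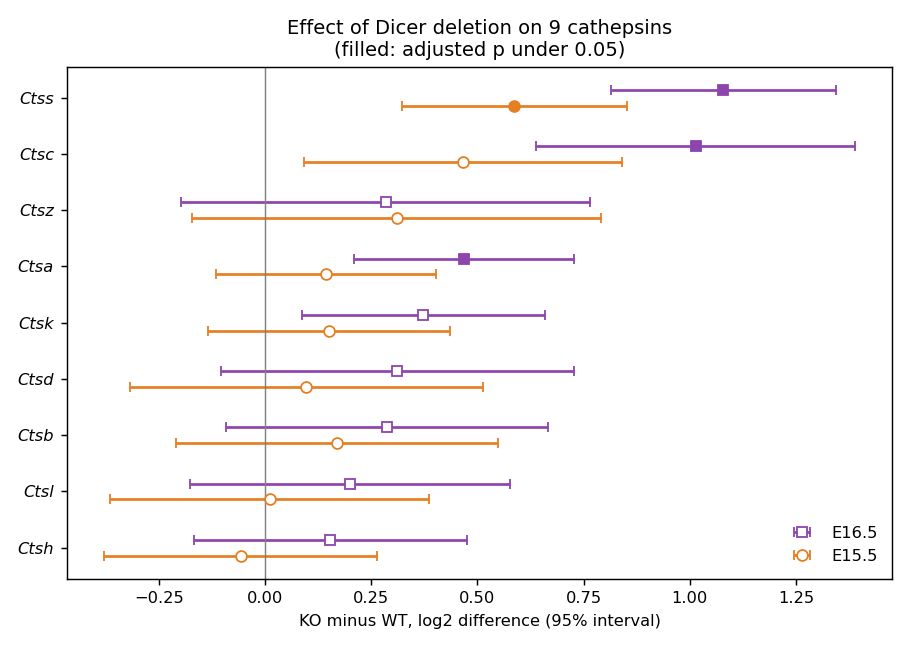
KO minus WT difference in log2 signal (horizontal axis) of the 9 cathepsins (vertical axis) at E16.5 (squares) and E15.5 (circles), with 95% intervals from limma on 16 arrays. Filled symbols passed at an adjusted p under 0.05: Ctss at both stages, and Ctsc and Ctsa at E16.5.

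**Figure D3:**
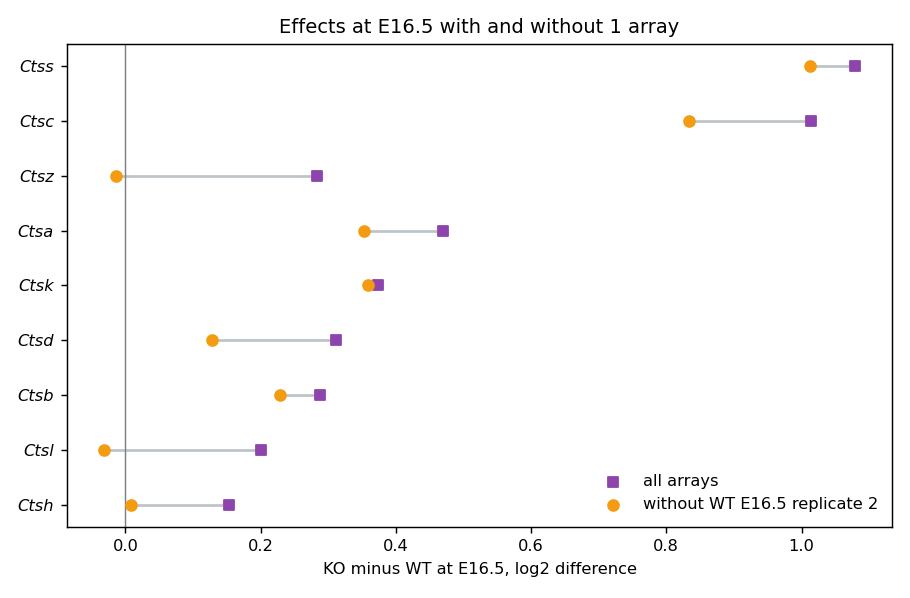
KO minus WT difference in log2 signal at E16.5 (horizontal axis) of the 9 cathepsins with all arrays (squares) and without WT E16.5 replicate 2 (circles). Ctss moves to 1.01 and Ctsc to 0.83, while Ctsz, Ctsl and Ctsh move to between −0.032 and 0.0080.

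Further probe sets of the same genes were read as a check on these values. Besides the probe set kept for each gene, 11 others were annotated to Ctsa, Ctsb, Ctsc, Ctsh, Ctsl and Ctsz. In a fit over all 45037 probe sets other than controls, 5 of the 20 passed as higher at E16.5 (7.1% of all) and 2 of 20 at E15.5 (6.06% of all). None fell, against 3.98% at E16.5 and 3.02% at E15.5. The counts include the kept probe sets of Ctss, Ctsc and Ctsa at E16.5 and of Ctss at E15.5. Of the 11 others, only a dim Ctsc one, at both stages, and a Ctsb one, at E16.5, passed. Probe sets of the same gene are not independent, so these counts are no separate evidence. A second Ctsc probe set, dim at a mean log2 signal of 3.52, was higher by 0.71 at E16.5 (adjusted p = 0.00551) and by 0.51 at E15.5 (adjusted p = 0.0374). The remaining Ctsc probe set, at a mean of 3.57, differed by 0.18 at E16.5 and 0.19 at E15.5 (adjusted p = 0.24 and 0.241). Both dim Ctsc probe sets exceeded the 40th percentile on 0 of 16 arrays, so they say little on the size of the difference. One of the 5 Ctsb probe sets, with a mean of 5.48, was higher by 0.69 at E16.5 (adjusted p = 0.00316), against 0.11 to 0.40 for the other 4.

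Probe sets disagreed for Ctsa. Its second probe set, at a mean of 5.86 against 9.57 for the kept one, differed by −0.25 at E16.5 (SE 0.14, adjusted p = 0.306), and the mean of both differed by 0.11 (adjusted p = 0.444). The other 2 probe sets of Ctsz each differed by 0.32 at E16.5 and did not pass (adjusted p = 0.067 and 0.359). Their differences lay close to that of the kept Ctsz probe set and well below that of Ctss. The second Ctsh probe set, at a mean of 9.97, differed by 0.15. A Ctsb probe set at a mean of 8.03 differed by 0.40, at the edge of the threshold (adjusted p = 0.05002 in limma). Those of Ctsb at means of 7.65 and 8.98 differed by 0.11 and 0.19.

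**Figure D4:**
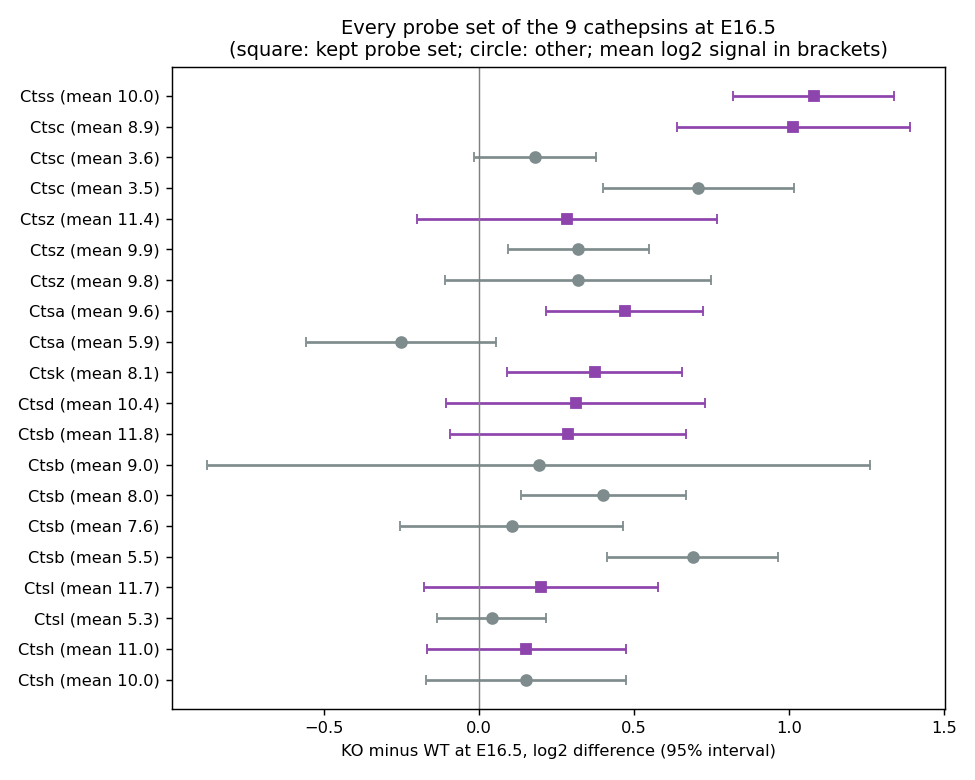
KO minus WT difference in log2 signal at E16.5 (horizontal axis) with 95% intervals for each of the 20 probe sets of the 9 cathepsins (vertical axis, with the mean log2 signal over 16 arrays in brackets). Squares are the probe sets kept for their gene and circles the others, and the second Ctsa probe set is the only one below 0, at −0.25.

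Over the day from E15.5 to E16.5, Ctss rose in KO glands. It averaged 10.91 ± 0.17 in KO at E16.5 and 9.98 ± 0.19 in KO at E15.5 (SD, n = 4), a difference of 0.93 (SE 0.12, adjusted p = 0.00183 in limma), with all 4 later arrays above all 4 earlier ones. In WT glands it averaged 9.83 ± 0.19 at E16.5 and 9.40 ± 0.13 at E15.5, a difference of 0.43 (SE 0.12) that did not pass (adjusted p = 0.231), although these groups did not overlap either. Ctss was the 1 cathepsin of 9 that passed in KO, where 0.901% of all genes tested passed in either direction. The later arrays lay above the earlier ones for 2 of 9 in KO, Ctss and Ctsc (5.53% of all genes), and for 1 of 9 in WT, Ctss (2.31%). In WT 0 of 9 passed in limma, against 0.0953% of all genes in either direction. By the kept probe sets 1 of 9, Ctss, had an unadjusted p under 0.05. So did the second Ctsh probe set (0.54) and those of Ctsb at means of 7.65 and 8.03 (0.47 and 0.42). In limma over all probe sets these did not pass (adjusted p = 0.437 to 0.684). Those of Ctsb at means of 5.48 and 8.98 differed by −0.13 and −0.08 in WT.

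Of the other members, Ctsc was higher at E16.5 than at E15.5 by 0.69 in KO (adjusted p = 0.092) and by 0.14 in WT. Ctsh differed by 0.47 in KO (adjusted p = 0.227) and by 0.26 in WT. For the remaining 6, by their kept probe sets, the stage differences ran from −0.07 to 0.27 in KO and from −0.07 to 0.12 in WT, and none passed. Other Ctsb probe sets ran from −0.28 to 0.61 in KO and from −0.13 to 0.47 in WT. The highest, in KO, fell just short of the threshold (adjusted p = 0.0583 in limma over all probe sets). The second Ctsh probe set differed by 0.56 in KO (adjusted p = 0.224 in that fit) and by 0.54 in WT. Ctsa differed by 0.25 in KO, with SDs of 0.14 at E16.5 and 0.09 at E15.5, and its arrays overlapped between stages.

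The KO effect itself was not shown to differ between stages for any cathepsin. It was larger at E16.5 than at E15.5 by 0.49 for Ctss (95% interval 0.12 to 0.87), 0.55 for Ctsc (0.02 to 1.08) and 0.33 for Ctsa (−0.04 to 0.69). None of the 9 passed this test of the difference between effects in limma (adjusted p = 1 for each when rounded), nor did any of the 13644 genes (0%). Without adjustment 2 cathepsins, Ctss and Ctsc, and 258 of all genes had a p under 0.05. The comparisons share arrays, so the stage differences and the KO effects are not separate evidence.

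Markers of macrophages were higher in KO glands, as were Ctss and Ctsc, while Ctsz did not pass. Of 19 macrophage markers, all above the filter on dim signals, 18 rose at E16.5 (6.99% of all genes) and 11 at E15.5 (3.69%). None of the markers fell, and their median difference was 1.32 and 0.81. Their summed linear signal ran from 14091 to 17479 in KO and from 6116 to 7857 in WT at E16.5, and from 8975 to 11018 in KO and from 4929 to 6013 in WT at E15.5. The differences of Ctss and Ctsc lay below the marker median and within the marker range at each stage. At E16.5 the lysosomal glycoprotein Cd68 (1.68), the complement component C1qa (1.67) and C1qc (1.56), and the signalling adaptor Tyrobp (1.49) had the largest differences. The part of these cells in the cathepsin differences was not tested, and in whole glands more cells of a type and more RNA per cell cannot be told apart.

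Markers of other cell types were read in the same way, at E16.5, where 6.99% of all genes tested rose and 3.55% fell. Of 4 antigen presentation genes tested 3 rose at E16.5, with H2-Ab1 at 1.24 and H2-Aa at 1.54. H2-Ab1 was dim in WT glands, at a mean of 5.12 against 6.36 in KO, so the size of its difference is uncertain. Of 5 neutrophil, 3 mast cell and 2 T and NK cell markers tested none passed in limma at E16.5, against 0, 0 and 1 at an unadjusted p under 0.05. The osteoclast markers Calcr, Ocstamp and Oscar lay below the filter, and Dcstamp fell by 0.54 (adjusted p = 0.00232 in limma). Dcstamp was dim as well, with means of 4.80 in KO and 5.33 in WT, so its fall is uncertain. The 8 capsule and mesenchyme markers had a median difference of 0.22, and 0 of them passed in limma, with or without adjustment of p. Of 7 adrenal cortex markers 3 fell, among them the hydroxylase Cyp21a1 (−1.09), and the cortex markers were bright on all 16 arrays. Of 5 chromaffin markers, those of the medulla, 3 rose, such as Chga (0.69). Without WT replicate 2, 18 macrophage, 2 antigen presentation and 2 chromaffin markers rose and 4 cortex markers fell. None of 6 endothelial markers passed, against 1 at an unadjusted p under 0.05, and 1 of 3 erythroid markers rose.

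Genes of the lysosome other than these cathepsins were read from lists. Of 27 other lysosomal hydrolases tested, 3 rose and none fell at E16.5, and 1 rose at E15.5, with medians of 0.11 and 0.04. Those that rose at E16.5 were the acid phosphatase Acp5 (1.15, adjusted p = 0.0155), abundant in osteoclasts and in some macrophages, the glucuronidase Gusb (0.57) and the phospholipase Pla2g15 (0.41). Acp5 was dim in WT glands, at a mean of 5.43 against 6.58 in KO at E16.5, so the size of its difference is uncertain. The share of 3 of 27 compares with the 6.99% of all genes, and that of 1 of 27 at E15.5 with 3.69%. Gusb (0.65) was also the one that rose at E15.5. The galactosidase gene Gla was lower in KO by 0.51 at E16.5 and by 0.48 at E15.5, and did not pass (adjusted p = 0.104 and 0.174 in limma). Without WT replicate 2, 3 of these hydrolases rose and 1 fell at E16.5.

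Of 20 genes of the lysosomal membrane and proton pump tested, 5 rose at E16.5 (6.99% of all genes) and 2 at E15.5 (3.69%). None fell. The cholesterol exporter Npc1 rose by 0.99 (adjusted p = 0.000958) at E16.5 and by 0.69 (adjusted p = 0.0193) at E15.5. Its soluble partner Npc2 rose by 0.42 at E16.5, and Cln3, a membrane protein mutated in neuronal ceroid lipofuscinosis, rose by 0.62 and 0.58. Cln3 was dim in WT glands, with means of 5.56 at E16.5 and 5.46 at E15.5, so the size of its differences is uncertain. Ostm1 (0.37) and Scarb2 (0.34), the receptor that carries glucocerebrosidase, also rose at E16.5. The median of this list was 0.14 at E16.5 and 0.17 at E15.5, against 0.08 and 0.07 over all genes tested.

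Among genes of lysosomal sorting and the TFEB family, 2 of 14 rose (6.99% of all genes) and 1 fell (3.55%) at E16.5. The adaptors Gga3 (0.36) and Gga2 (0.35) rose, and neither passed without WT replicate 2, while the transcription factor Mitf fell by 0.62 (adjusted p = 0.0325). Nagpa, which uncovers the mannose 6-phosphate tag, rose at E15.5 (0.66, adjusted p = 0.038). Psap, which encodes the saposin precursor, differed by 0.47 (adjusted p = 0.147) at E16.5.

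Of the cathepsin inhibitors and the protease that processes cathepsins, 1 of 7 tested rose at E16.5 (6.99% of all genes). It was Ctla2b (0.76, adjusted p = 0.0346), related to the propeptide of the cysteine proteases. Legumain, Lgmn, which cuts several cathepsins into their chains, differed by 0.66 (adjusted p = 0.205), and the cystatin Cstb by 0.19. Of 13 other cathepsins on the array 10 lay below the filter, most of them members of the placental cluster, and the 3 tested, Ctsf, Ctso and Ctsw, differed by 0.04, −0.05 and 0.23 at E16.5, none passing in limma or at an unadjusted p under 0.05.

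**Figure D5:**
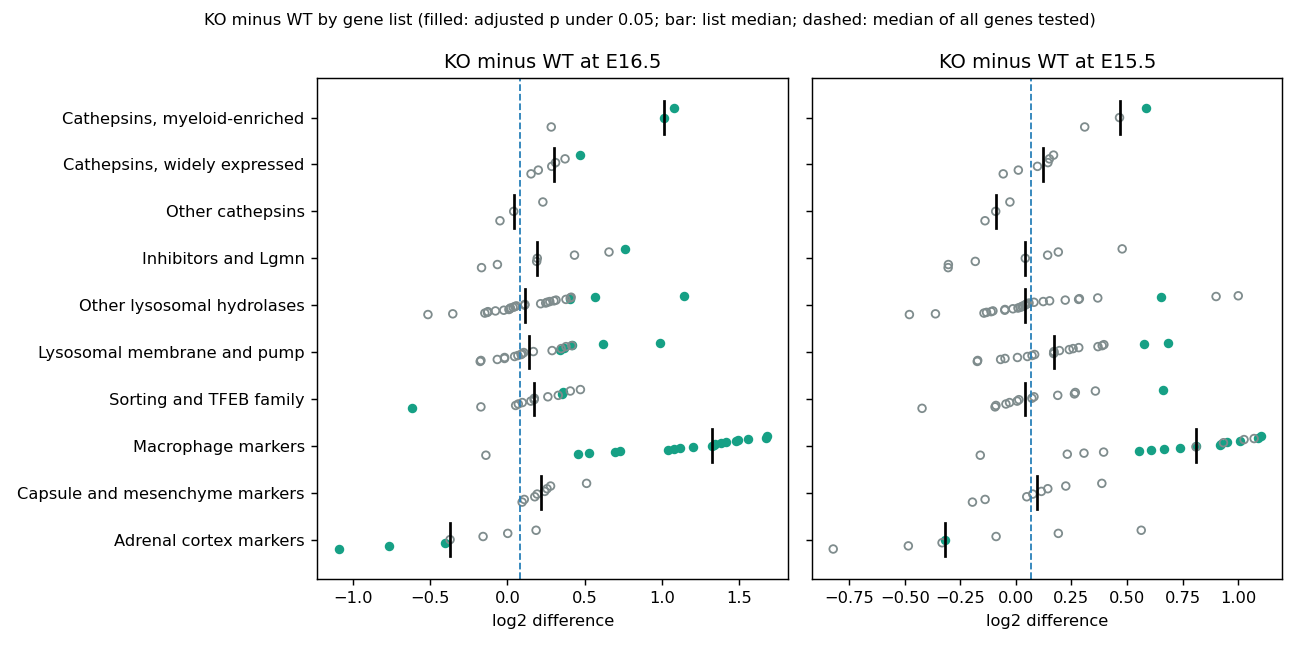
KO minus WT difference in log2 signal (horizontal axis) at E16.5 (left) and E15.5 (right) of single genes by list (rows). Filled points passed at an adjusted p under 0.05, bars are list medians and the dashed line is the median of all genes tested, 0.08 at E16.5 and 0.07 at E15.5; macrophage markers have medians of 1.32 and 0.81 and the widely expressed cathepsins 0.30 and 0.12.

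Genes with the most similar profiles were sought for the 3 cathepsins that passed, by the root mean square difference over the 16 arrays after centring each gene on its own mean. Nearest to Ctss were Marchf1, a ubiquitin ligase that acts on class II molecules (0.15), Laptm5, a lysosomal membrane protein of blood cells (0.17), and the Fc receptor Fcgr4 (0.18). Nearest to Ctsc were the endotoxin receptor Tlr4 (0.17), the phagosomal metal transporter Slc11a1 (0.19) and Tfec (0.19). Nearest to Ctsa were the mitochondrial chaperone Clpb (0.11), the lysosomal membrane glycoprotein Lamp1 (0.11) and the spermine oxidase Smox (0.11). The profiles of Ctss, Ctsc and Ctsa themselves varied with a root mean square of 0.57, 0.50 and 0.23. The KO minus WT differences at E16.5 were 1.04 to 1.29 for the neighbours of Ctss, 0.99 to 1.14 for those of Ctsc and 0.35 for each of those of Ctsa. Neighbours were chosen by closeness over these same arrays, so similar differences follow from the choice and are no separate evidence. Laptm5 is also on the list of macrophage markers.

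The promoters of the 3 cathepsins that rose are shown with that of Ctsd, which did not pass, to set motifs of lysosomal and myeloid factors beside the values. RefSeq promoters of build GRCm38.p6 were found for 7 of the 9 members, not for Ctsb and Ctsh. In each, the 250 bases before an annotated start of transcription were searched on both strands. The window of Ctsl and the one shown for Ctsa lie within the annotated gene, and that of Ctsc reaches into it. Capitals mark matches.
Ctss (chr3:95526536-95526785, plus strand): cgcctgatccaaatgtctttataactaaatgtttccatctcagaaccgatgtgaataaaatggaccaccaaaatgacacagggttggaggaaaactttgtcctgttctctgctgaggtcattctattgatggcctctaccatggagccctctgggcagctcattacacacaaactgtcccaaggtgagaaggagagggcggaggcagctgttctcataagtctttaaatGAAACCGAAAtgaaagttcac
Ctsc (chr7:88277835-88278084, plus strand): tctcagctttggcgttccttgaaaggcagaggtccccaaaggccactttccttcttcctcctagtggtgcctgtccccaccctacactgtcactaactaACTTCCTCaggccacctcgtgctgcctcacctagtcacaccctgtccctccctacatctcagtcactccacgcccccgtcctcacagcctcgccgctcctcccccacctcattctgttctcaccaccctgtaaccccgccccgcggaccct
Ctsa (chr2:164833523-164833772, plus strand): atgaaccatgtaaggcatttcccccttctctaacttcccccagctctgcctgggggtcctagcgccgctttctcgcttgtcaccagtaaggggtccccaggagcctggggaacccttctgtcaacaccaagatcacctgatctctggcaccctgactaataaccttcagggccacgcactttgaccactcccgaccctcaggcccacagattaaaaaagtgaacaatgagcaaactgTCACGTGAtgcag
Ctsd (chr7:142387828-142388077, minus strand): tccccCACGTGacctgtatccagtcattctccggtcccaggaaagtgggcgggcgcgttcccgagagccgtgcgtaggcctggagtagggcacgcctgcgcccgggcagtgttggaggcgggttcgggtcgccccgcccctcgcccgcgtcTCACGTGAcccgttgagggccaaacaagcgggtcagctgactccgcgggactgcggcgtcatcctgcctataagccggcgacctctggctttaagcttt

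The motifs searched were CACGTG, the E-box core bound by TFEB among others, and its longer form TCACGTGA, which holds the shorter one; GAGGAAGT, of the type bound by ETS factors such as PU.1; TTTC repeated with 2 free bases between the copies, of interferon regulatory factors; and TGANTCA, of AP-1. TCACGTGA was present at 1 of the 2 starts of Ctsa, at base −13 counted from that start, and in Ctsd at base −99. It was in 0.785% of the 32851 windows in the table. CACGTG was also present in Ctsl, whose window lies within the gene, and at a further place in Ctsd. It was in 6.02% of windows. GAGGAAGT was found, on the other strand, in Ctsc (2.44% of windows), and the interferon regulatory factor motif, likewise on the other strand, in Ctss (2.98%). A match is a description of these letters only. TGANTCA, in 6.75% of windows, was in none of the members. Ctsa and Ctsd thus share the longer E-box. Their differences at E16.5 were 0.47, which passed, and 0.31, which did not, and these were not compared with each other. Any part of the motif was not tested. Ctsk and Ctss are neighbouring protein-coding genes on chromosome 3, with differences of 0.37 and 1.08 at E16.5.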

How the data were processed

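Total RNA of pooled adrenal glands was measured on 16 arrays. The authors deposited log2 signals of 45101 probe sets. RMA and limma are the tools that the submitters' processing notes list, without versions or order, and whether the 16 arrays were normalized together was not known here. Here limma 3.58.1 in R 4.3.3 was used on these values as deposited. Probe sets were named by the platform's annotation, with symbols updated through the gene identifier. Of 18193 genes, each by its probe set of highest mean, 13644 exceeded the 40th percentile on at least 4 arrays and were tested, with a mean per group and Benjamini-Hochberg adjustment over all genes (threshold 0.05, two-sided). The number of arrays limits the precision (median SE 0.139). Members and lists were chosen with earlier results of these data known. Named were the members, up to 4 genes of a list by size of change at E16.5, and 3 nearest profiles; further list genes were named after their values were seen. The fit was tested on simulated data. Alternatives covered scaling, filters, probe sets, weights, blocks and arrays left out.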

Additional observations from a re-analysis of the deposited data

Results flagged for a closer look

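Of 36 groups of 4 arrays, 1 held an array far from the other 3: Ctsk in WT glands at E16.5, where replicate 1 read 8.09 and the next highest array 7.88. Chance alone gives about 1 such group in 20. In the KO arrays of that stage Ctsk ranged from 7.95 to 8.60.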

How the results depend on the processing

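Ctss passed at both stages, and Ctsc at E16.5, under all 10 alternatives and in all 8 fits that left out 1 array of the stage, with differences of 0.99 to 1.15 for Ctss and 0.63 to 1.13 for Ctsc at E16.5. The 1 cathepsin that passed at E15.5 became 2, with Ctsc added, with the mean of a gene's probe sets (adjusted p = 0.0469), with array weights, with the replicate block and with only the arrays compared; at E16.5 there were 2 to 4. Over the day, array weights gave 3 in KO and 2 in WT, and the mean of probe sets 2 in KO. The genes passing, 800 at E15.5 and 1439 at E16.5, became 1688 and 2355 without the filter (more genes tested), 476 at E15.5 with the stricter filter, 4091 and 4988 over all probe sets, 1350 and 4938 with array weights, which gave WT E16.5 replicate 3 a weight of 10.4, and 817 at E16.5 with only that stage's arrays. Leaving out an array gave 935 (without KO replicate 3) to 1705 at E16.5; the cause was not tested. The split of higher to lower, 503 to 297 and 954 to 485 as deposited, was 373 to 350 and 606 to 570 after quantile normalization, 276 to 372 and 447 to 609 centred on the 75th percentile, and 372 to 453 and 663 to 557 centred on dim genes.

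Signs changed only for differences that did not pass: at E15.5 Ctsl was −0.066 (75th percentile) and −0.0505 (dim genes) and Ctsh 0.034 (mean of probe sets). With 1 array left out, the ranges were −0.025 to 0.26 for Ctsd, −0.16 to 0.0062 for Ctsh and −0.053 to 0.052 for Ctsl at E15.5, and −0.0315 to 0.31 for Ctsl and −0.015 to 0.47 for Ctsz at E16.5. Without WT E16.5 replicate 2 the counts higher at E16.5 were 2 inhibitors, 3 hydrolases with 1 lower, 6 membrane and pump genes and 0 sorting genes. Same-numbered KO and WT pools correlated in their deviations by −0.39 to 0.45. Of 8 KO arrays, 3 correlated best with the WT array of their own number. These values do not settle whether the numbers mark litters, which the labels do not state. The main fit did not take the numbers as pairs. With the replicate block, which does, 710 and 1263 genes passed.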
